A study of Capra hircus with 20 samples.

Results

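The genes of polyamine synthesis described here are SRM, ODC1, AMD1, AZIN1, AZIN2, SMOX, DHPS and EIF5A, 8 of the 21071 genes with values in the deposited expression table. They were taken by gene symbol through the RefSeq annotation of the goat genome ARS1.2, and the set was selected on the measured FPKM of SRM, which was lower in the hypothalamus at M4 than at D1. The M4 vs. D1 difference of SRM is therefore given as a description with no test, and the other comparisons of SRM with D1 or M4 are described in the same way because they use the same libraries.

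Expression was measured by RNA sequencing in 20 hypothalami of female Jining grey goats, a breed with early puberty, killed at 4 ages from 1 to 180 days. The stages were D1 (1 day), M2 (60 days), M4 (120 days) and M6 (180 days), with 5 goats and 5 libraries per stage, 1 library per goat. No goat was treated, and age was the only factor given in the labels. The paper states that the goats were killed on the same date, so age cannot be told apart from date of birth. The libraries were strand-specific and depleted of ribosomal RNA. Values are FPKM (fragments per kilobase of exon, scaled to the mapped reads of the library), which account for gene length. Levels are set side by side between genes, but scaling by length does not correct for genes that overlap. The paper states that it went on with uniquely mapped reads only. Read counts were not used here, so how many reads the value of a gene rests on is not known.

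Polyamines (putrescine, spermidine and spermine) are small, positively charged molecules that bind RNA and other acidic molecules and are needed for cell growth and protein synthesis. Ornithine decarboxylase makes putrescine, and spermidine synthase and spermine synthase then add aminopropyl groups that come from decarboxylated S-adenosylmethionine. Spermidine is also the source of hypusine, a modified lysine that the translation factor eIF5A needs, and in the brain spermine modulates glutamate receptors and potassium channels.

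The libraries varied in tissue content. The summed FPKM of 10 markers of hypothalamic neurons ranged from 1.46 to 916, GHRH was listed at 0 in 19 libraries and OXT and HCRT in 6 each, so these defining markers were absent from part of the set. The summed FPKM of 8 myelin genes ranged from 1073 to 16106 at D1 and from 493 to 16210 at the later stages. In M2 replicate 3 and M6 replicate 3 a single gene, KLHDC1, made up 23.9% and 9.83% of all FPKM. Another gene, LOC102181504, made up 11.7% in M6 replicate 5 and 9.76% in M2 replicate 4, so only the 23.9% stood out. M4 replicate 1 had the highest summed FPKM of 5 neuron markers (2564) and of 4 cortex markers (59.4, against at most 8.27 in the other libraries).

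SRM encodes spermidine synthase, which converts putrescine to spermidine (gene 102169500, chromosome 16, 41062640 to 41066649). SRM stood at 14.5, 15.3, 17.5, 12.1 and 12.6 FPKM in D1 replicates 1 to 5. It was 5.94, 6.92, 9.43, 8.81 and 8.84 FPKM at M2. All M2 libraries lay below all D1 libraries.

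At M4, SRM was 5.81, 7.56, 5.68, 5.07 and 8.51 FPKM. At M6 it was 7.41, 8.42, 8.69, 6.11 and 8.46 FPKM. The M2, M4 and M6 libraries overlapped with each other, and all 15 of them, with a median of 7.56 FPKM and a highest value of 9.43 FPKM, lay below the lowest D1 library at 12.1 FPKM.

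SRM averaged 14.4 ± 2.18 FPKM in the D1 libraries, 7.99 ± 1.48 in M2, 6.53 ± 1.45 in M4 and 7.82 ± 1.08 in M6 (SD, n = 5 each). On the scale of log2(FPKM + 0.1), the difference from D1 was -0.85 at M2, -1.14 at M4 and -0.87 at M6 (SE 0.19 each), which is 1.80-fold, 2.21-fold and 1.83-fold lower. All of these differences use the D1 libraries on which the set was chosen. SRM at M4 differed from M2 by -0.29 and M6 from M4 by 0.27 on the log2 scale, differences that were not tested.

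Of the 6 pairs of stages, M6 vs. M2 is the only one that shares no library with the choice of SRM. The log2 difference there was -0.02 (SE 0.19; limma, Benjamini-Hochberg adjusted p = 0.982), and SRM did not pass the test. SRM libraries that do not overlap were a property it shared with few genes. Of 16771 genes tested, 2.32% had all M2 libraries below all D1 libraries, 1.52% had this at M4 and 1.48% at M6, and 0.125% (21 genes) had all 15 later libraries below all D1 libraries, with 0.0179% (3 genes) in the opposite direction. The choice of SRM used D1 and M4, so these shares describe it and test nothing.

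**Figure D1:**
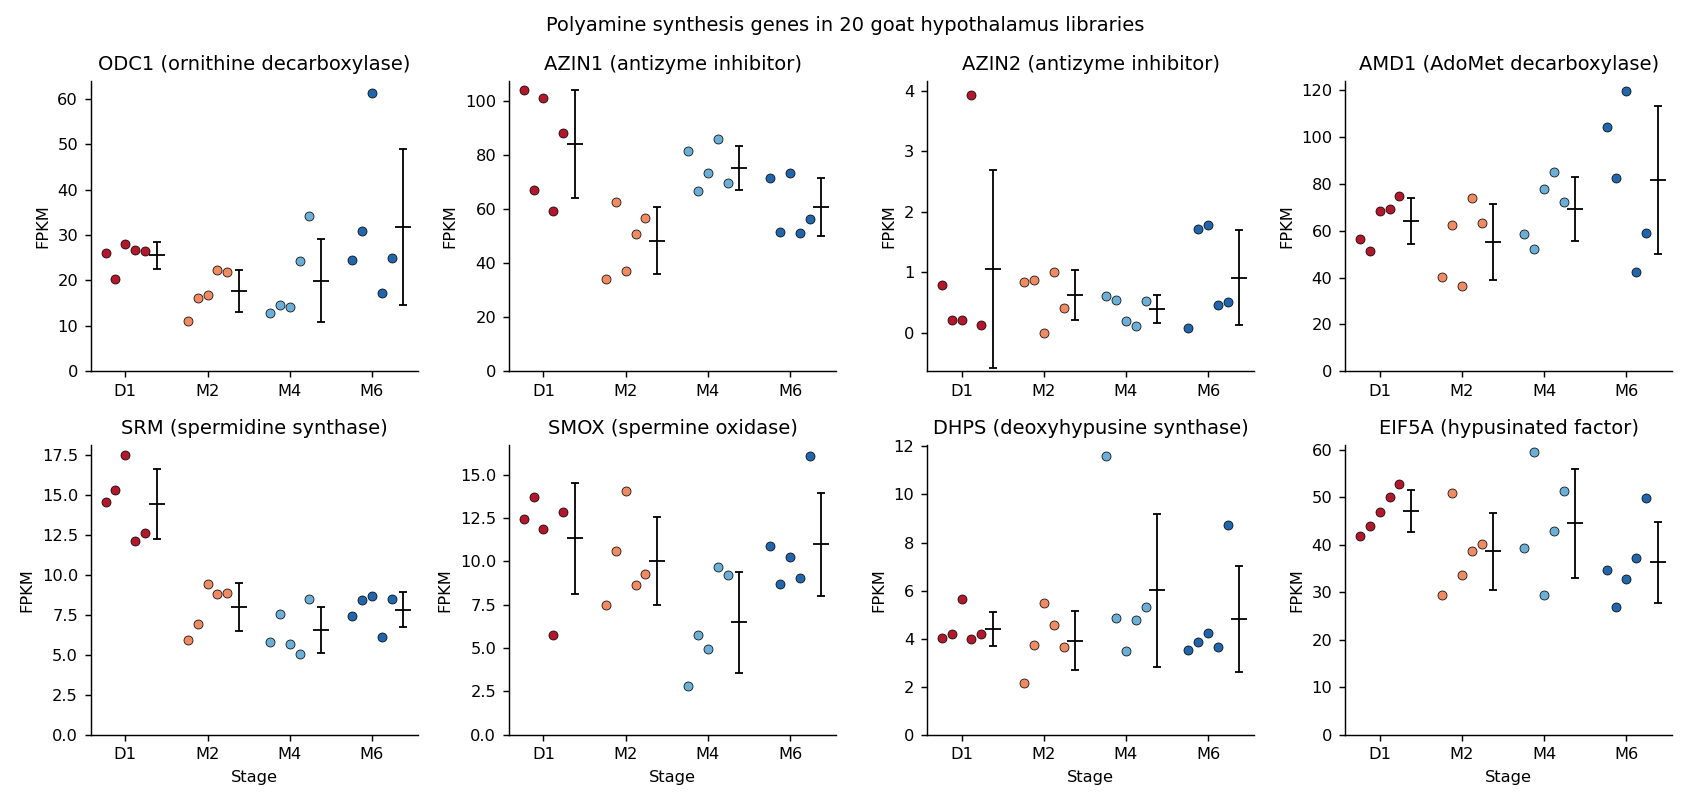
FPKM of the 8 polyamine synthesis genes in each library (dots, replicates 1 to 5 from left to right within a stage) at D1, M2, M4 and M6, with the stage mean and SD (bar, n = 5); the lower SD bar of AZIN2 at D1 reaches below 0 because 1 library is at 3.93 FPKM. The 5 D1 libraries of SRM, from 12.1 to 17.5 FPKM, sit above all 15 later libraries, and no other gene of the set shows such a gap between D1 and all later stages.

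The gap in SRM between D1 and the later stages narrowed when the libraries were rescaled. The lowest D1 library and the highest later library were 12.1 and 9.43 FPKM as deposited, 11.7 and 10.3 after median-ratio scaling, and 11.2 and 10.5 after quantile normalization. They did not overlap under any of these scalings.

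Markers of other cells moved in part with SRM. The summed FPKM of 5 proliferation genes (MKI67, TOP2A, CDK1, CCNB1 and CCNA2) had medians of 18.0 at D1 and 11.4, 8.20 and 11.5 at M2, M4 and M6. It ranged from 6.96 (D1 replicate 5, with SRM at 12.6 FPKM) to 22.0 at D1 and from 7.45 to 13.8 at the later stages. The summed FPKM of 4 red blood cell genes was 1.75 to 4.11 at D1 (median 2.36) and 0.10 to 2.49 later (medians 0.928, 0.524 and 0.810). The D1 libraries thus tended to be higher in both sums as in SRM, with overlap, but single genes differed. TOP2A, CDK1 and CCNB1 had their highest stage mean at D1. CCNA2 had its lowest there (4.65 FPKM, against 6.38, 5.16 and 7.33 later), and MKI67 was higher at M2 (0.596) than at D1 (0.296). Of the red blood cell genes, ALAS2 fell most after D1. AHSP and HEMGN were also highest at D1, but HEMGN was close at M6 (0.184 and 0.179 FPKM). SLC4A1 was listed at 0 in 15 libraries.

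The summed FPKM of the myelin genes had medians of 14719 at D1 and 6048, 7599 and 6822 at M2, M4 and M6, so it too was higher in most D1 libraries. D1 replicate 4, with SRM at 12.1 FPKM, had the lowest myelin sum of D1, 1073, and M6 replicate 3, with SRM at 8.69 FPKM, the highest of all libraries, 16210. The part of these cells in the difference of SRM was not tested, and in whole tissue fewer cells of a type and less RNA per cell cannot be told apart. Over the 20 libraries, where D1 stood apart in SRM, Pearson's r of SRM was 0.820 with the mean of the red blood cell genes, 0.776 with that of the proliferation genes and 0.446 with that of the myelin genes, given as a description. It was 0.511 with the mean of markers of oligodendrocyte progenitors and 0.506 with the share of reads mapped. With the stage means removed, SRM and the mean of the proliferation genes had Pearson's r = 0.465 (permutation p = 0.0491, adjusted p = 0.425) and Spearman's rho = 0.487 (p = 0.0415, adjusted p = 0.291). This r was 0.373 without M2 replicate 1 and M4 replicate 5, the 2 libraries farthest from their stage mean of SRM. None of 21 such relations within stages of SRM, with 13 marker lists, the share of reads mapped and the 7 other genes, passed after adjustment.

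ODC1 encodes ornithine decarboxylase, the enzyme that makes putrescine (chromosome 11, 86791546 to 86798850). ODC1 was 26.0, 20.4, 28.0, 26.7 and 26.6 FPKM at D1. It was 11.1, 16.1, 16.7, 22.3 and 21.9 FPKM at M2, where the highest libraries overlapped with the lowest D1 library. The log2 difference of M2 vs. D1 was -0.56 (SE 0.30; limma, adjusted p = 0.368).

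ODC1 varied more between goats at M4 and M6, a difference in spread that was not tested. It was 12.7, 14.6, 14.1, 24.2 and 34.2 FPKM at M4. It was 24.5, 31.0, 61.4, 17.2 and 25.0 FPKM at M6, where replicate 3 was the highest of all 20 libraries. The SD was 2.96 FPKM at D1 and 17.3 FPKM at M6.

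ODC1 at M6 was higher than at M4 by 0.64 on the log2 scale (SE 0.30; limma, unadjusted p = 0.0482, adjusted p = 0.725) and higher than at M2 by 0.75 (SE 0.30; limma, unadjusted p = 0.0224, adjusted p = 0.746). Neither passed the test after adjustment. Without M6 replicate 3 these differences were 0.37 and 0.48.

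AZIN1 and AZIN2 encode antizyme inhibitors, which bind the antizymes that lead ornithine decarboxylase to the proteasome and so spare the enzyme. AZIN1 (chromosome 14, 20561181 to 20591914) was abundant, at 103.7, 67.1, 100.9, 59.2 and 88.0 FPKM at D1. It was 34.0, 62.7, 37.2, 50.8 and 56.8 FPKM at M2, with an overlap of 1 library, M2 replicate 2, with the lowest at D1. The log2 difference was -0.80 (SE 0.20; limma, unadjusted p = 0.000768, adjusted p = 0.136), a level 1.74-fold lower that did not pass the adjusted threshold.

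The adjusted p of AZIN1 in M2 vs. D1 depended on the fit. It was 0.0363 with library quality weights, where the log2 difference was -0.69, and 0.793 with the share of reads mapped as a covariate, where the difference was -0.44. These were the lowest and highest of all alternatives, and no alternative put AZIN1 past both the adjusted p and the log2 fold change of 1.

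AZIN1 was 81.3, 66.4, 73.2, 85.7 and 69.4 FPKM at M4, so that all M4 libraries lay above all M2 libraries, also after median-ratio scaling and quantile normalization. Of 16771 genes, 0.537% showed this direction without overlap. The log2 difference of M4 vs. M2 was 0.67 (SE 0.20; limma, unadjusted p = 0.00335, adjusted p = 0.481). At M6 AZIN1 was 71.3, 51.4, 73.1, 51.0 and 56.1 FPKM, overlapping with each other stage, and it differed from D1 by -0.45 (SE 0.20; limma, unadjusted p = 0.0375, adjusted p = 0.638).

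AZIN2 (chromosome 2, 15126549 to 15166535) had the lowest mean FPKM of the set, 0.744 over 20 libraries against 67.0 for AZIN1. It was listed at 0 in M2 replicate 3 and reached 3.93 FPKM in D1 replicate 4, with stage medians of 0.217, 0.840, 0.529 and 0.506 FPKM from D1 to M6. All stages overlapped. The log2 difference of M2 vs. D1 was -0.12 (SE 0.81; limma, adjusted p = 0.959), and its sign changed when single libraries were left out.

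AMD1 encodes S-adenosylmethionine decarboxylase, which supplies the aminopropyl donor for spermidine and spermine (chromosome 9, 26747547 to 26769476). It had the highest mean of the set, 67.6 FPKM. AMD1 ranged from 51.2 to 74.7 FPKM at D1 (median 68.5), from 36.6 to 74.1 at M2 (median 62.6), from 52.4 to 85.3 at M4 (median 72.3) and from 42.6 to 119.8 at M6 (median 82.7). Every stage overlapped with the others, and the log2 difference of M2 vs. D1 was -0.25 (SE 0.26; limma, adjusted p = 0.673), with a positive sign, 0.10, under quantile normalization.

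SMOX encodes spermine oxidase, which turns spermine back into spermidine (chromosome 13, 50305402 to 50340974). SMOX was 12.4, 13.7, 11.9, 5.73 and 12.9 FPKM at D1 and ranged from 7.50 to 14.0 at M2 (median 9.25). The log2 difference of M2 vs. D1 was -0.15 (SE 0.31; limma, adjusted p = 0.852), with D1 replicate 4 below every M2 library.

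SMOX was lowest at M4, with 2.82, 5.78, 4.96, 9.66 and 9.24 FPKM, and was 10.9, 8.67, 10.2, 9.05 and 16.1 FPKM at M6. M4 overlapped with both M2 and M6. The log2 difference was -0.72 for M4 vs. M2 (SE 0.31; limma, unadjusted p = 0.0304, adjusted p = 0.553) and 0.84 for M6 vs. M4 (SE 0.31; limma, unadjusted p = 0.0124, adjusted p = 0.700). Without M4 replicate 1, the library with the highest neuron and cortex markers, these were -0.45 and 0.58. The M4 vs. D1 difference of SMOX, -0.86, was not tested.

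DHPS encodes deoxyhypusine synthase, which moves the aminobutyl part of spermidine onto eIF5A (chromosome 7, 98186514 to 98190469). The gene overlaps WDR83 in the annotation, and whether the values were made with regard to strand is not given in the sources used here, so its level is uncertain. DHPS had medians of 4.19, 3.72, 4.86 and 3.88 FPKM from D1 to M6, with all stages overlapping, and 3 single libraries stood high, at 5.64 (D1 replicate 3), 11.6 (M4 replicate 1) and 8.72 FPKM (M6 replicate 5). The log2 difference of M2 vs. D1 was -0.22 (SE 0.31; limma, adjusted p = 0.776), and it was 0.25 with the share of reads mapped as a covariate.

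EIF5A encodes the translation factor that carries hypusine (chromosome 19, 26825720 to 26830560). EIF5A was 41.9 to 52.8 FPKM at D1 (median 46.9), 29.5 to 51.0 at M2 (median 38.7), 29.5 to 59.4 at M4 (median 42.9) and 26.8 to 49.9 at M6 (median 34.8). At M2 and at M6, 4 of 5 libraries lay below the lowest D1 library. The log2 difference of M2 vs. D1 was -0.31 (SE 0.20; limma, adjusted p = 0.462), with a sign that turned under quantile normalization (0.02) and with the share of reads mapped as a covariate (0.05).

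**Figure D2:**
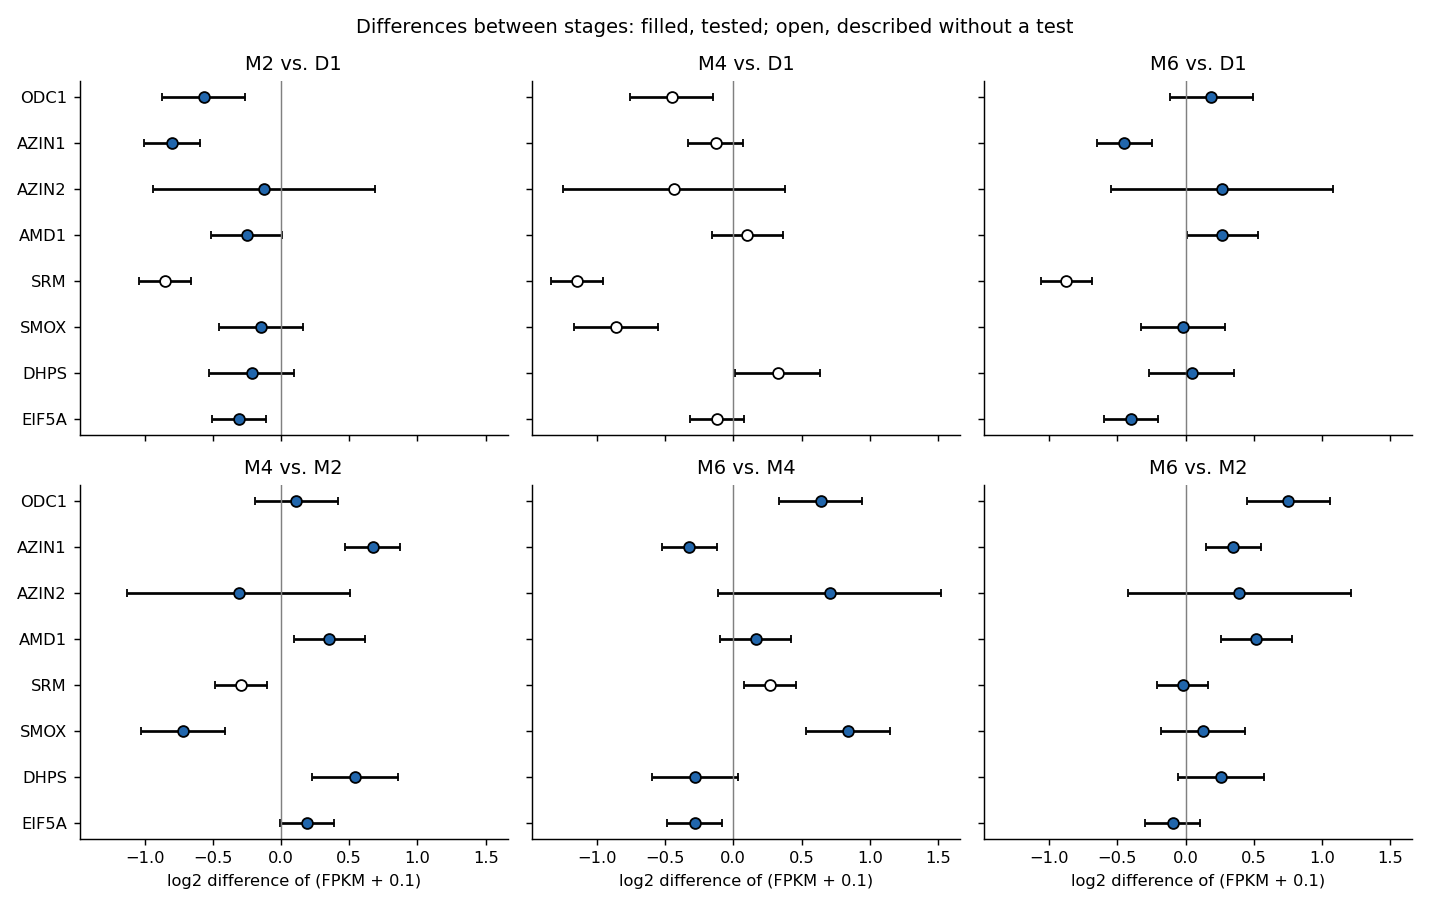
Difference of mean log2(FPKM + 0.1) for each gene in the 6 comparisons of stages, with bars of 1 SE from limma; filled points were tested and open points are described without a test. SRM lies between -0.85 and -1.14 in the 3 comparisons with D1 and at -0.02 in M6 vs. M2, and AZIN1 lies at -0.80 in M2 vs. D1 and at 0.67 in M4 vs. M2.

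No tested gene of the set was called in any of the 5 tested comparisons, where a call required an adjusted p under 0.05 together with a log2 difference of 1 or more in either direction. This applied to 7 genes without SRM in M2 vs. D1, M4 vs. M2, M6 vs. M4 and M6 vs. D1 and to all 8 in M6 vs. M2. Calls were rare among all 16771 genes: 0% in M2 vs. D1, M4 vs. M2, M6 vs. M4 and M6 vs. M2, and 0.00596% in M6 vs. D1.

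At an unadjusted limma p under 0.05, 1 of 7 genes (AZIN1, lower) passed in M2 vs. D1, where 15.6% of all genes did. In M4 vs. M2, 2 of 7 passed (AZIN1 higher, SMOX lower) against 8.68% of all genes. In M6 vs. M4, 2 of 7 passed (ODC1 and SMOX, both higher) against 6.87%.

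In M6 vs. D1, 1 of 7 passed (AZIN1, lower) against 7.41% of all genes. In M6 vs. M2, 1 of 8 passed (ODC1, higher) against 6.14%. With 7 or 8 genes per comparison, counts of 1 or 2 are too small to be read as a result about the set.

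The 7 genes other than SRM all had negative log2 differences in M2 vs. D1, with a median of -0.25 against -0.07 over all genes. This count was 7 of 7 with median-ratio scaling but 5 of 7 under quantile normalization, where AMD1 and EIF5A were positive, and 5 of 7 with the share of reads mapped as a covariate, where DHPS and EIF5A were positive. In M6 vs. M2, 1 of 7 was negative, with a median of 0.35 against 0.02 over all genes. Of 23 other genes of polyamine metabolism, described below, 17 were negative in M2 vs. D1 and 8 in M6 vs. M2. In M2 vs. D1 this was 14 under quantile normalization and 11 with the share of reads mapped as a covariate. The share of all genes in each direction is not given, so these counts are not read as a result about the set.

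The rest of polyamine metabolism was covered by a list of 24 genes, of which 23 matched the table and all 23 were tested. None was called in any of the 5 tested comparisons. At an unadjusted limma p under 0.05, 5 of 23 were lower and 0 higher in M2 vs. D1, where 9.35% of all genes were lower and 6.25% higher. The 5 were SAT2, EIF5A2, ENOPH1, MAT2B and APIP.

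SAT2, a relative of the spermidine/spermine acetyltransferase SAT1, had a log2 difference of -0.67 in M2 vs. D1 (limma, adjusted p = 0.181) and of -0.51 in M6 vs. D1 (adjusted p = 0.632). It was 27.1 ± 4.70 FPKM at D1 and 18.8 ± 1.80 at M6, and all M6 libraries (highest 20.7) lay below all D1 libraries (lowest 20.8) as deposited, as in 1.48% of all genes. The stages overlapped after median-ratio scaling (highest M6 21.5, lowest D1 19.0) and after quantile normalization (21.0 and 19.3). SAT2 overlaps SHBG in the annotation, SAT1 overlaps LOC102190942 and ARG2 overlaps VTI1B, so their levels are as uncertain as that of DHPS. SAT1, which acetylates spermidine and spermine for export or breakdown, was 95.7 ± 24.4 FPKM at D1 and 79.6 ± 18.9 at M2, with overlap.

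EIF5A2, the paralog of EIF5A, was 71.4 ± 21.6 FPKM at D1 and 39.6 ± 14.6 at M2 (log2 difference -0.88; limma, adjusted p = 0.261). ENOPH1 and APIP act in the methionine salvage pathway, which recycles the methylthioadenosine released by spermidine and spermine synthesis. Their log2 differences in M2 vs. D1 were -0.53 (limma, adjusted p = 0.257) and -0.47 (adjusted p = 0.306). MAT2B, a regulatory subunit of S-adenosylmethionine synthesis, had -0.48 (adjusted p = 0.302).

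In M4 vs. M2, 1 of 23 was lower at an unadjusted limma p under 0.05, SLC3A2 with -0.44 (adjusted p = 0.562), where 4.72% of all genes were, and 0 were higher. In M6 vs. D1, 2 of 23 were lower, SAT2 and the mitochondrial arginase ARG2 with -0.70 (adjusted p = 0.606), where 4.08% of all genes were. None passed at that level in M6 vs. M4 or M6 vs. M2. DOHH, which completes hypusine after DHPS, was 2.40 ± 0.353 FPKM at D1 and 1.3 ± 0.393 at M4, with no test. Its highest M4 library (2.00) lay just below its lowest D1 library (2.01), a separation seen in 1.52% of all genes. These were 1.90 and 2.03 after median-ratio scaling and 1.94 and 2.18 after quantile normalization. Over these 23 genes, M2 vs. D1 had a median log2 difference of -0.24.

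**Figure D3:**
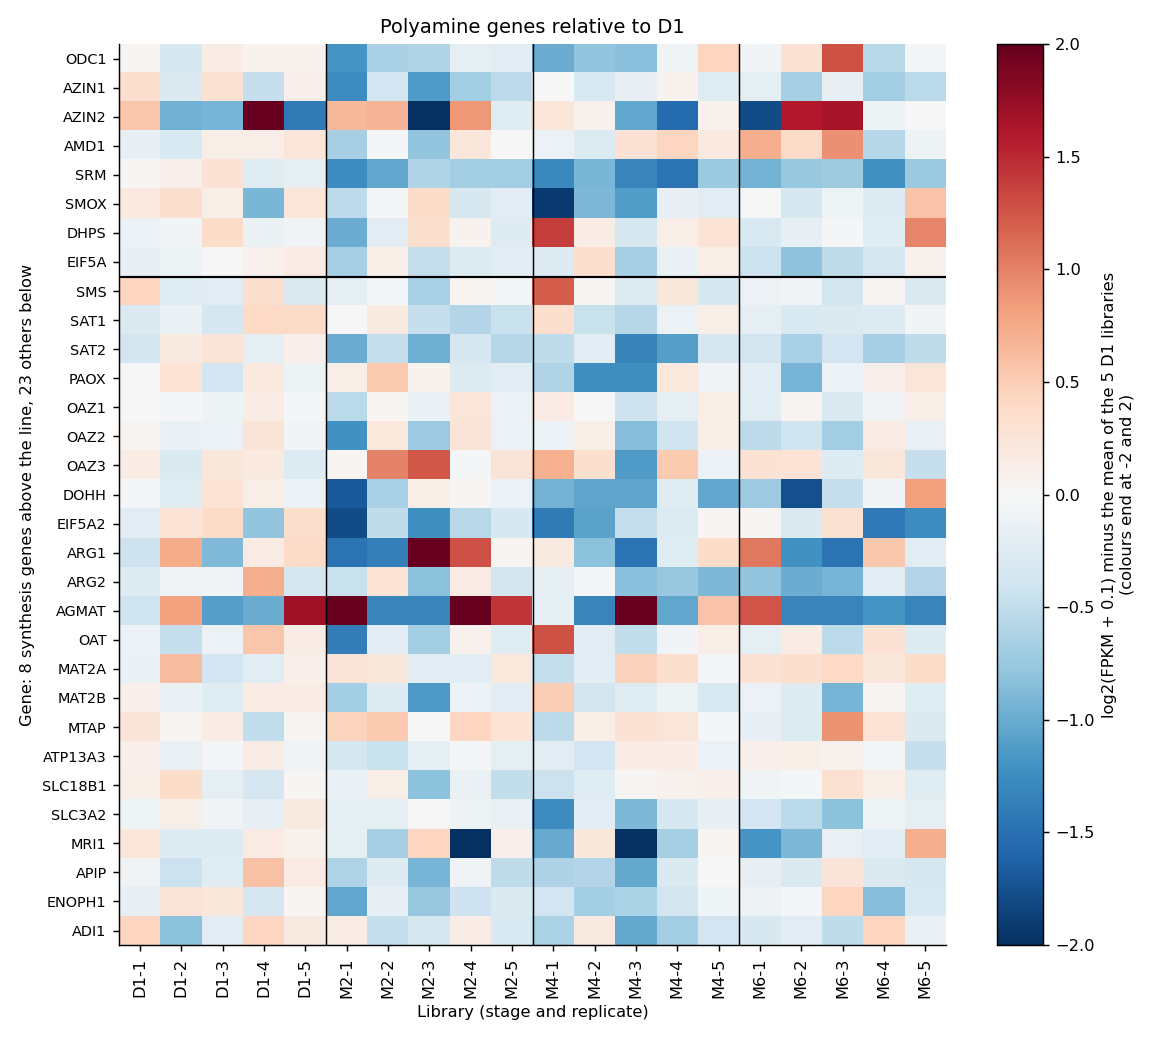
Log2(FPKM + 0.1) of the 8 polyamine synthesis genes (above the horizontal line) and the 23 other genes of polyamine metabolism (below it) in each of 20 libraries, minus the mean of the 5 D1 libraries, with blue for lower, red for higher and colours ending at -2 and 2. SRM is blue in all 15 libraries of M2, M4 and M6, whereas its neighbour in the pathway, SMS, is near 0 in most and red in M4 replicate 1 (28.1 FPKM).

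Ratios between genes within a library do not depend on the scaling of that library, and 4 of them were chosen after the values had been seen, so they are given with no test. SMS encodes spermine synthase, which uses the spermidine that SRM makes, and its stage means were 12.4, 10.9, 14.9 and 10.9 FPKM from D1 to M6. SRM over SMS had a median of 1.28 in D1, 0.71 in M2, 0.569 in M4 and 0.725 in M6. It ranged from 0.801 to 1.67 at D1, and M2 (up to 1.23), M4 (up to 0.882) and M6 (up to 0.931) overlapped with it.

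The ratio of AMD1 to SRM ranged from 3.34 to 5.91 at D1, from 3.88 to 9.05 at M2, from 6.93 to 16.8 at M4 and from 6.97 to 14.1 at M6. All M4 and M6 libraries lay above all D1 libraries, and M2 overlapped with D1. SRM was picked for its fall from D1 to M4, so shifts from D1 in this ratio and in SRM over SMS carry that choice. AMD1 itself differed by 0.10 on the log2 scale in M4 vs. D1 (SE 0.26), with no test. How many other pairs of genes show such a gap is not known. OAZ1 encodes the main antizyme, and its stage means were 157, 148, 152 and 149.6 FPKM. The ratio of ODC1 to OAZ1 had medians of 0.164, 0.117, 0.119 and 0.180 from D1 to M6, with M6 replicate 3 at 0.478.

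The ratio of EIF5A2 to EIF5A had medians of 1.64, 0.938, 1.31 and 1.99 from D1 to M6. M2 reached from 0.669 to 1.37 and D1 from 0.784 to 1.90, and all stages overlapped. At D1, M4 and M6 the median library thus held more FPKM of EIF5A2 than of EIF5A.

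**Figure D4:**
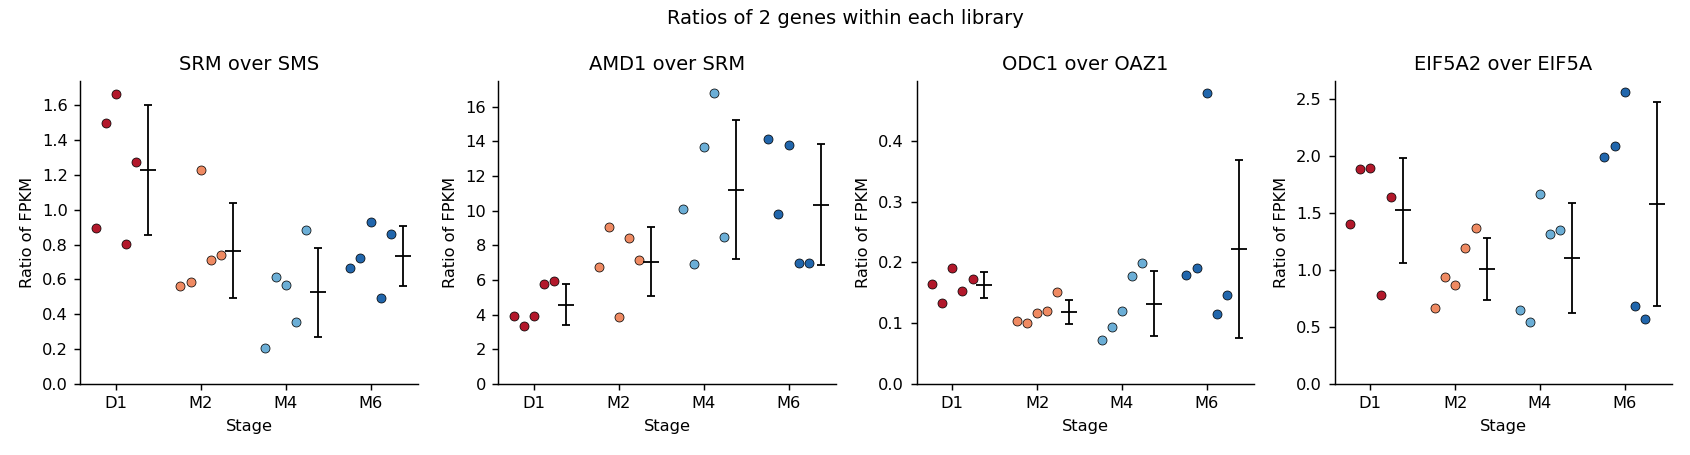
Ratio of FPKM of a pair of genes within each library (dots) by stage, with the stage mean and SD (bar, n = 5), for SRM over SMS, AMD1 over SRM, ODC1 over OAZ1 and EIF5A2 over EIF5A. AMD1 over SRM is at most 5.91 at D1 and at least 6.93 at M4 and M6, and the other 3 ratios overlap between all stages. The ratios with SRM carry its choice for a fall from D1 to M4.

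The members were compared with each other over the 20 libraries after the stage means had been removed, so that the relations rest on differences between goats of the same age. ODC1 and AMD1, the decarboxylases that feed the pathway, had the highest Pearson's r, 0.683 (permutation p = 0.00484, adjusted p = 0.0974), with Spearman's rho = 0.642 (p = 0.0078, adjusted p = 0.109). This r was 0.686 without M6 replicate 3 and M4 replicate 5, the 2 libraries farthest from their stage mean of ODC1.

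AMD1 and AZIN1 had r = 0.596 (permutation p = 0.0116, adjusted p = 0.108) and rho = 0.598 (p = 0.0129, adjusted p = 0.12), and r was 0.555 without 2 libraries. AZIN2 and SMOX had r = -0.578 (permutation p = 0.00696, adjusted p = 0.0974) and rho = -0.592 (p = 0.00616, adjusted p = 0.109), and r was -0.376 without 2 libraries, D1 replicate 4 and M2 replicate 3. None of the 28 pairs passed an adjusted p of 0.05. All pairs share libraries and their scaling.

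SRM had its highest r within stages with ODC1, 0.518 (permutation p = 0.038, adjusted p = 0.266), with rho = 0.465 (p = 0.0628, adjusted p = 0.352). This r was 0.323 without M2 replicate 1 and M4 replicate 5, the 2 libraries farthest from their stage mean of SRM. Leaving out the farthest libraries can lower r by itself, so this does not show how far the relation rests on them. By rank, SRM was closest to DHPS, which overlaps WDR83, with rho = 0.517 (permutation p = 0.0287, adjusted p = 0.201). The r of SRM and DHPS was 0.392 (permutation p = 0.145, adjusted p = 0.629), and 0.328 without the same 2 libraries. SRM and AMD1 had r = 0.109 (permutation p = 0.658, adjusted p = 0.878) and rho = 0.0105 (p = 0.969, adjusted p = 0.977), and r was -0.0064 without 2 libraries.

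**Figure D5:**
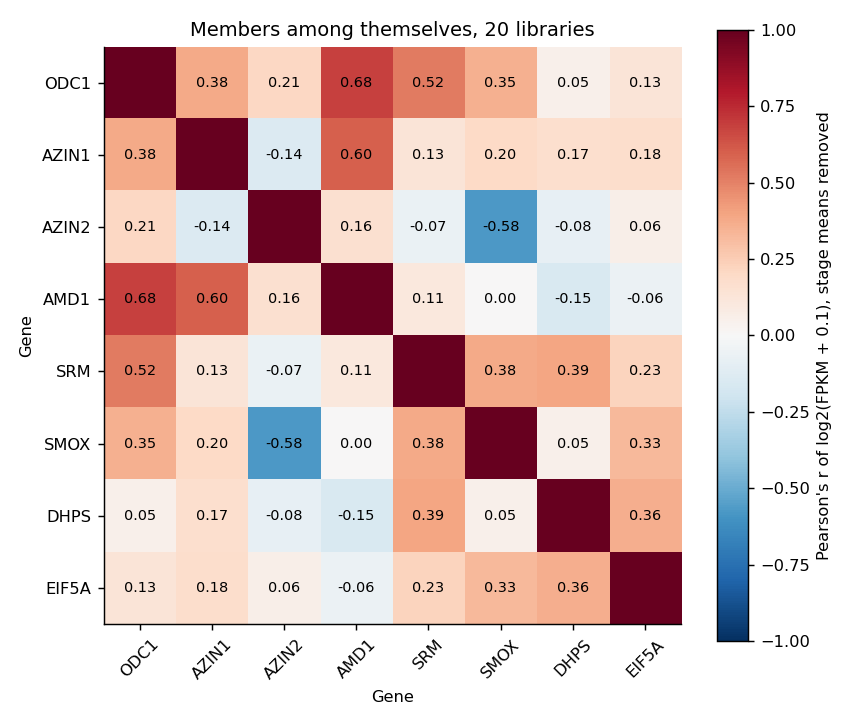
Pearson's r of log2(FPKM + 0.1) between the 8 genes over 20 libraries with the stage means removed, from blue (-1) to red (1). The highest values are between ODC1 and AMD1 (0.68) and between AMD1 and AZIN1 (0.60), and the lowest is between AZIN2 and SMOX (-0.58).

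The genes most like SRM were sought among 13666 genes with a mean of at least 1 FPKM, by Pearson's r over the 20 libraries, as a description with no test. The highest were MVD (0.865), an enzyme of cholesterol synthesis, RAB4B (0.843), IDH1 (0.839), MMAB (0.837) and CAPN12 (0.831). MVD was 30.9 ± 14.4 FPKM at D1 and 9.84, 6.72 and 8.34 FPKM at M2, M4 and M6. IDH1, the cytosolic isocitrate dehydrogenase that makes NADPH, was 165.8 ± 89.7 FPKM at D1 and 48.1, 37.9 and 38.0 later.

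The lowest r values were those of CTCF (-0.830), a DNA-binding protein of chromatin architecture, SOBP (-0.825), TRPS1 (-0.800), ASH1L (-0.784), a histone methyltransferase, and ZMYM6 (-0.783). CTCF was 8.07 ± 2.36 FPKM at D1 and 13.8 ± 4.16 FPKM at M4. With the stage means removed, the genes most like SRM were CAPN12 (0.791), NOC4L (0.790), PEX16 (0.783), SDS (0.776) and SLC2A8 (0.773), and only CAPN12 was in both lists of 5. Within polyamine metabolism, SAT2, with the doubt that it overlaps SHBG, had the highest r with SRM over the 20 libraries, 0.778.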

How the data were processed

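The deposited table holds FPKM per gene and library. According to the methods and the submitters' processing notes, the authors aligned reads to goat ARS1.2 with HISAT2 2.0.5 and computed FPKM with StringTie 1.3.3b; FPKM are relative values, and a gene that takes a large share of a library lowers all others. No counts were used, so the reads behind each gene's value are unknown, no counting intervals are given, and the count model of the study was replaced by limma 3.58.1 (R 4.3.3).

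A single limma fit with trend used the 20 libraries, log2(FPKM + 0.1) and the 16771 genes that reached 0.1 FPKM in 5 or more libraries, a filter all 8 members passed, with Benjamini-Hochberg adjustment over all genes. It was tested on simulated data. The threshold for a call was an adjusted p of 0.05 with a log2 difference of 1 in either direction. The pseudocount pulls the fold changes of low genes such as AZIN2 toward 0. Correlations used two-sided permutation tests with 100000 resamples within stages (Python 3.11.15).

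The members and gene lists were chosen with earlier results of these data known. No member was tested in M4 vs. D1, and SRM only in M6 vs. M2. Fold changes with tests are given for the other 7 members in M2 vs. D1, and elsewhere where the unadjusted p was under 0.05. Genes most like SRM are the 5 with the highest and the 5 with the lowest r. Alternatives were another pseudocount, other filters, scalings, library weights, a replicate block, the share of reads mapped as a covariate, only the libraries compared, calls by adjusted p with no limit on size, and each library left out in turn.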

Additional observations from a re-analysis of the deposited data

Results flagged for a closer look

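Within each stage, the highest or lowest of 5 libraries was set against the other libraries by Dixon's test, for 8 genes in 4 stages. A library stood apart in 6 of 32 groups, where chance gives about 1 in 20 for normally distributed values. Over all 67007 groups of genes tested, 13.4% had a library apart by the same measure, so 6 of 32 is not read as a result about these genes. ODC1 in D1 replicate 2 was 20.4 FPKM, below the next library at 26.0. SMOX in D1 replicate 4 was 5.73 FPKM, below the next at 11.9, and AZIN2 in the same library was 3.93 FPKM, above the next at 0.784. DHPS, which overlaps WDR83, stood high in D1 replicate 3 (5.64 FPKM, next 4.20), in M4 replicate 1 (11.6 FPKM, next 5.30) and in M6 replicate 5 (8.72 FPKM, next 4.24). No SRM library stood apart within its stage.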

How the results depend on the processing

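The count of called genes was 0 in all 5 tested comparisons under each alternative run. Of 419 alternative values for 14 single results of named genes, 405 kept their direction and side of the threshold and 14 changed sign; none of these results was called. SRM in M6 vs. M2 (-0.02) ranged from -0.12 to 0.063 when single libraries were left out, and was 0.0014 without M2 replicate 3 and M6 replicate 3 together, an alternative chosen after seeing the data. In M2 vs. D1, AZIN2 ranged from -0.48 to 0.56 when single libraries were left out and was 0.44 with library weights and 0.49 without those 2 libraries. Under quantile normalization AMD1 was 0.10 and EIF5A 0.016 in M2 vs. D1; with the share of reads mapped as a covariate DHPS was 0.25 and EIF5A 0.052. The cause of these changes was not tested. The described differences of SRM from D1 stayed between -0.92 and -0.75 at M2, -1.25 and -1.04 at M4, and -0.95 and -0.79 at M6.

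Replicate numbers mark different goats. Pairs of libraries with the same number in different stages correlated in their deviations from the stage means with a median r of -0.011 (30 pairs, 7 of them over 0.1). The median was 0.0044 for 120 pairs with other numbers, 37 of them over 0.1. Single pairs reached 0.43 with the same number and 0.42 with other numbers. Whether any libraries shared a batch was not tested. With the replicate block, 0 genes of the set were called in each tested comparison, as without it. Without read counts, the precision of low values, such as those of AZIN2, is unknown.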

Other observations

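The 20 genes that, like SRM, had all 15 later libraries below all D1 libraries were picked out after their values were seen. They include NOP16, a nucleolar protein of ribosome assembly (mean 24.1 FPKM over 20 libraries), DRG1, a GTPase that binds ribosomes (18.7 FPKM), SNRPC, a protein of the U1 splicing particle (21.2 FPKM), TIMM44, a part of the mitochondrial import motor (15.1 FPKM), CDKN2C, an inhibitor of cell cycle kinases (1.49 FPKM), and ALAS2, the heme synthesis enzyme of red blood cells (0.337 FPKM). The rest were MLF1, S100A8, C4H7orf73, SUOX, TRAM1L1, SNX2, TMEM68, OGFOD1, RAB4B, ATP5G1, GALNT1, TBL2, DPP3 and BLMH. Whether these genes share a function was not tested. In the opposite direction, 3 genes (0.0179%) had all later libraries above all D1 libraries, EYA3 (5.72 FPKM), HECW2 (22.4 FPKM) and KIRREL3 (15.6 FPKM).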
